A study of Mus musculus with 6 samples.

Results

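The genes described here are 9 components, regulators and receptors of the complement system: C1qa, C1qb, C1qc, C3, C4b, Cfb, Serping1, Cd55 and Cr2. They were chosen by symbol, and all 9 were found among the 15643 genes of the deposited table. They were measured in mature medullary thymic epithelial cells (mTEChi), the MHC class II-high epithelium of the thymic medulla, sorted from NOD mice, a strain prone to autoimmune diabetes, aged 4.5 weeks. Libraries 745, 750 and 753 carry the label Aire+/+ and libraries 746, 748 and 749 the label Aire-/-, 3 of each, with no treatment given, and the NOD background was shared by every library. The labels give neither the structure of the Aire allele nor whether each number was 1 animal, and p-values therefore reflect only library-to-library spread, which may be technical. The MARS-seq method tags the 3′ ends of transcripts with unique molecular identifiers (UMIs), and UMIs were counted. Levels are given as scaled CPM, the UMIs of a gene divided by the library's total after correction for composition (counts per unit of sequencing depth, the usual CPM scale), and they are means ± SD over 3 libraries where an SD follows.

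Complement is a cascade of plasma and cell-surface proteins that tags particles for uptake and can open membranes. C1q, built from the products of C1qa, C1qb and C1qc, recognizes antibody complexes and dying cells and starts the classical pathway through the proteases C1r and C1s, which cut C4 and C2. C3 is the central protein at which all pathways meet, and factor B, the product of Cfb, supplies the protease of the alternative pathway. Serping1 encodes C1 inhibitor, which blocks C1r and C1s, and Cd55 encodes decay-accelerating factor, which takes apart the C3-cleaving enzymes on host cells. Cr2 encodes complement receptor 2, a receptor for C3 fragments known from B cells and follicular dendritic cells, and in the mouse the same gene also gives complement receptor 1 by splicing. Liver makes most of the plasma components, whereas C1q comes mainly from macrophages and immature dendritic cells.

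Several libraries stood apart before any complement gene was considered. UMI totals ran from 2736932 to 2887321 in the Aire+/+ libraries and from 1014581 to 1960802 in the Aire-/- libraries, with the smallest in 746. Gapdh, a glycolytic enzyme, was at 90 UMIs in library 753 and 28 in 746 and between 2245 and 4166 in the other libraries. Transcripts assigned to Aire itself were at 2063 to 2447 CPM in the Aire+/+ libraries and at 4464 to 5118 CPM in the Aire-/- libraries, higher in every Aire-/- library. A 3′ tag checks a deletion only where it lies inside it, and the allele is not given, so the directions below rest on the labels. All 10 mature mTEC markers were present in every library, and 5 of them, among them H2-Aa and Cd74, were higher in Aire-/-. All 6 cortical epithelial markers were higher in Aire-/-, with summed levels of 991 to 1331 CPM against 2293 to 2396 CPM. Of the blood-cell and stromal lists, 9 of 10 macrophage markers, 8 of 10 B cell markers, 5 of 7 dendritic cell markers, 9 of 9 thymocyte markers, 5 of 7 fibroblast markers and 5 of 5 endothelial markers were in the table, each above 0 in every library. None of the 5 dendritic cell, 9 thymocyte and 4 endothelial markers tested was called.

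Of the 9 complement genes, Cr2 and Cfb rose in the Aire-/- libraries, Cd55 fell, and 6 were not called (edgeR, adjusted p of 0.05). Cr2 rose about 6.92-fold and Cfb 1.45-fold, and Cd55 fell 3.63-fold. All 9 passed the filter on low counts, Cr2 through the Aire-/- libraries and Cd55 through the Aire+/+ libraries, where each is high. Among the 11956 genes tested, 8.59% were called higher and 12.1% lower, 20.7% in all, and 3 calls among so few genes are read against that share. Levels were fully separated by genotype for 3 of the 9, against 36.5% of the tested genes. The median log2 fold change of the 9 was 0.37, and that of all tested genes was -0.02. The genes that were not called fell into sets led by 1 Aire-/- library each: the C1q chains were highest in 749, and C3, C4b and Serping1 were highest in 746.

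**Figure D1:**
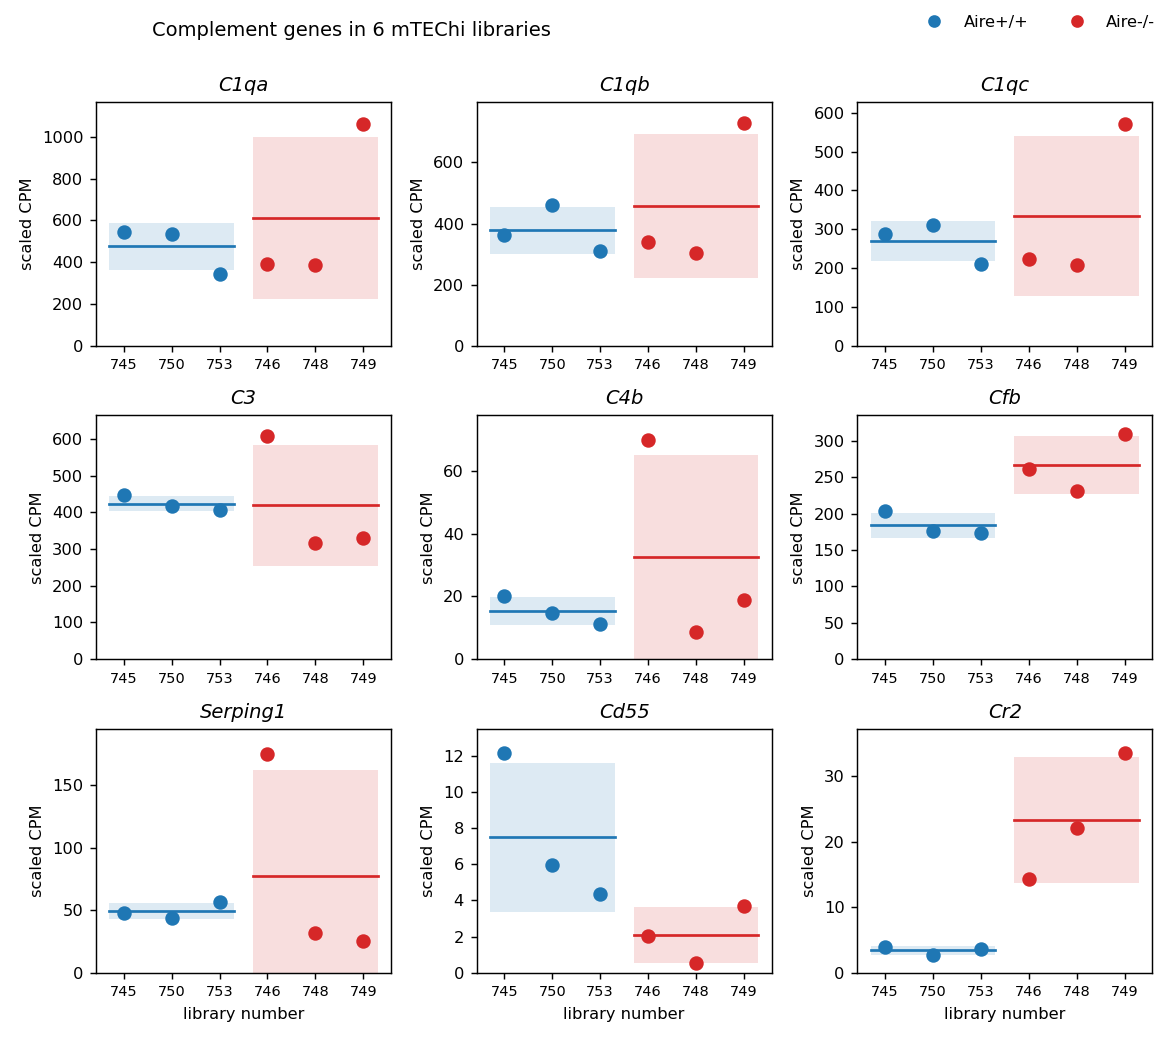
Scaled CPM (vertical axes, from 0) of the 9 complement genes in each library (horizontal axes, library number), with the mean as a line and 1 SD as a band. Cr2 and Cfb are higher in every Aire-/- library and Cd55 is lower in every one, while library 749 is highest for the C1q genes and library 746 for C3, C4b and Serping1.

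C1qa, C1qb and C1qc, the chains of the recognition molecule, moved together from library to library. They lie side by side on chromosome 4, C1qb at positions 136880129 to 136886187, C1qc at 136889804 to 136893065 and C1qa at 136895917 to 136898803 (mm10, minus strand). The 250 bases before the RefSeq starts of C1qb and C1qc (GRCm38.p6, minus strand) are shown because these neighbours share their pattern across libraries; capitals mark the motif matches described next.
C1qb promoter: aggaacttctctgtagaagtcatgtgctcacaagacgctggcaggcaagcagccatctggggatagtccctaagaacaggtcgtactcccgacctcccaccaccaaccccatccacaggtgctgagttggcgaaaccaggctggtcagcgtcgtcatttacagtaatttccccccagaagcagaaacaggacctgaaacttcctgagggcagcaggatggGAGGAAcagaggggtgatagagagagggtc
C1qc promoter: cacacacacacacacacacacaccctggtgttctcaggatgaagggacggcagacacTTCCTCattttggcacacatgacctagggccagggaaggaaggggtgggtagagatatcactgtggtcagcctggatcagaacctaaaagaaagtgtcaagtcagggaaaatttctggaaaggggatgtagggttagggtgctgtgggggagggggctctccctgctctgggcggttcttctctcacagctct
The first covers chr4:136886201-136886450 and the second chr4:136892915-136893164. The gene positions above put the start of C1qc at 136893065, inside its window, so part of that window lies within the annotated gene. RefSeq promoters were matched for 5 of the 9 genes, and 9 motifs were searched on both strands. Motifs of myeloid and B cell factors were GAGGAA for PU.1 and, for C/EBP, TTGCNNAA. The EBF motif was CCCNNGGG and that of RBPJ, which acts in Notch signalling, was TGGGAA. Inflammatory signalling was covered by TTCNNNGAA for STAT factors, the NF-kB motif and the interferon response element. General elements were the TATA box, spelled TATAAA, and the E-box, spelled CANNTG and left in lower case. Both C1q promoters hold GAGGAA, as do 23.3% of all 32851 promoter windows. It begins at base 30 before the RefSeq start in C1qb and, on the other strand, at base 193 in C1qc. The motifs do not share letters at these matches, and a match is a description of the sequence, not of a bound site.

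For C1qa, 745, 750 and 753 (Aire+/+) gave 1665, 1620 and 1030 UMIs, and 746, 748 and 749 (Aire-/-) gave 382, 715 and 1735. As scaled CPM these were 546, 535 and 346 against 392, 385 and 1061. Library 749 stood far above the highest Aire+/+ library, and the other 2 Aire-/- libraries lay inside the Aire+/+ range. On the log2 scale C1qa differed by 0.37 (SE 0.33), with a 95% interval of -0.34 to 1.08 (edgeR adjusted p = 0.486). C1qb was at 377 ± 76.4 CPM against 457 ± 235 CPM (log2 fold change 0.28, interval -0.31 to 0.87). C1qc was at 270 ± 52.5 against 334 ± 205 CPM (log2 fold change 0.31, interval -0.36 to 0.99). Neither was called, and the intervals allow up to 1.83-fold and 1.98-fold higher levels. Without library 749 the 3 fold changes turned to -0.29, -0.23 and -0.33 on the log2 scale, again without a call.

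Within a library the chains kept nearly the same proportions. C1qc made up 23.2% to 24.3% of the UMIs of the 3 genes in all 6 libraries. The share of C1qa ran from 39.95% in library 753 (Wilson 95% interval 38.1% to 41.9%) to 45.7% in library 745 (44.0% to 47.3%), and that of C1qb from 30.3% in 745 to 35.7% in 753. The C1qa intervals of these 2 libraries do not overlap, and the shares in the Aire-/- libraries lay within the Aire+/+ range for C1qa and C1qb. Such intervals cover counting error only.

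Macrophage transcripts were also highest in library 749. Leaving out Lyz2, which holds most of the macrophage sum, the other 8 macrophage markers of the table summed to 207 to 265 CPM in the Aire+/+ libraries and to 215, 208 and 412 CPM in the Aire-/- libraries 746, 748 and 749. With Lyz2 the sums were 1289 to 1430 CPM against 1530, 1514 and 2533 CPM. Csf1r, the receptor that macrophages need to survive, was among the markers present in every library, and Fcgr1 was the 1 marker of the list not analysed here. The summed C1q level was 4.19 to 5.34 times that of the markers without Lyz2 in the Aire+/+ libraries and 4.30 to 5.73 times in the Aire-/- libraries, so this ratio overlapped between genotypes. Of the 9 macrophage markers 1, Cd68, was called, as higher. In such bulk libraries fewer cells of a type and less RNA per cell cannot be told apart, and the part of macrophage RNA in the C1q levels was not tested. Cfp, which encodes properdin, the stabilizer of the alternative pathway made by myeloid cells, had its highest level in 749 as well, at 152 CPM against 50.3 to 78.7 CPM in the other 5 libraries.

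**Figure D2:**
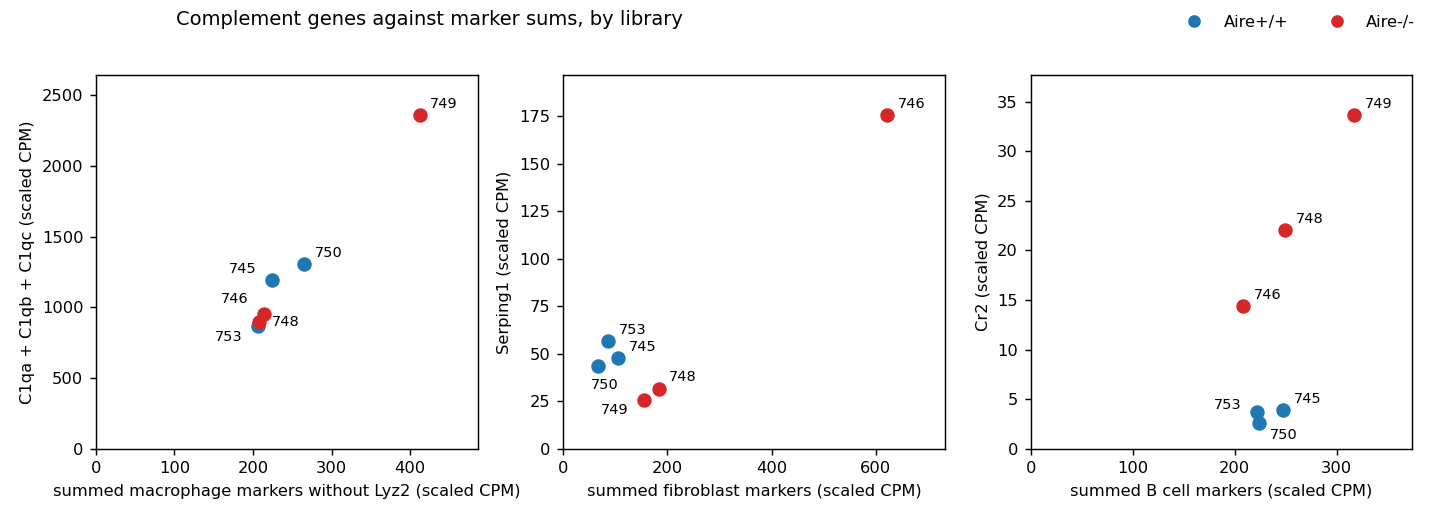
Scaled CPM of complement genes (vertical axes) against the summed scaled CPM of markers of another cell type (horizontal axes), 1 point per library, labelled by number. Library 749 is highest for C1q and for macrophage markers, library 746 is highest for Serping1 and for fibroblast markers, and Cr2 differs between genotypes at B cell sums of 208 to 317 CPM.

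C3, C4b and Serping1 shared another pattern, with their highest level in library 746. C3 (chromosome 17, 57203970 to 57228136) was counted at 1362, 1259 and 1213 UMIs in Aire+/+ and 593, 590 and 540 in Aire-/-. Scaled for depth, these were 447, 416 and 407 CPM against 609, 317 and 330 CPM. The Aire+/+ levels were close together, and the Aire-/- libraries lay on either side of them. C3 had a log2 fold change of -0.03 with a 95% interval of -0.48 to 0.43 (edgeR adjusted p = 0.952). As a ratio of Aire-/- over Aire+/+ that interval runs from 0.716 to 1.35. Without 746 the log2 fold change was -0.38, with an interval of -0.66 to -0.10 and an edgeR adjusted p of 0.0527, and C3 was not called. The RefSeq promoter of C3 holds the C/EBP motif from base 45 before its start, as do 9.56% of all promoter windows.

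Serping1, the inhibitor of C1r and C1s (chromosome 2, positions 84765387 to 84775444), was at 47.9, 43.6 and 56.7 CPM in the Aire+/+ libraries and at 176, 31.7 and 25.7 CPM in the Aire-/- libraries. Its direction depended on library 746. With all libraries the log2 fold change was 0.53 (SE 0.52, edgeR adjusted p = 0.535), and without 746 it was -0.77 (SE 0.20) with an adjusted p of 0.0122, a call for lower levels in the other Aire-/- libraries. Leaving out 753 together with 746 gave -0.67 and an adjusted p of 0.0674.

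C4b, the complement C4 gene of mouse (chromosome 17, positions 34728380 to 34743882), had 61, 45 and 33 UMIs against 68, 16 and 31. As scaled CPM these were 20.0, 14.9 and 11.1 against 69.8, 8.61 and 19.0, so 1 Aire-/- library lay far above the others and 1 below them all. The log2 fold change was 0.91 with a 95% interval of -0.26 to 2.08 (edgeR adjusted p = 0.277). It was -0.17 without 746 and, with a call, 1.44 without 748 (adjusted p = 0.041). The last 299 nt of C4b match those of its neighbour C4a at 98.3% identity, and how reads were split between the copies is uncertain. C4a was at 7.83 ± 1.25 against 7.06 ± 1.88 CPM, and the sum of both genes was 17.8 to 29.2 CPM in the Aire+/+ libraries and 78.0, 16.7 and 23.8 CPM in 746, 748 and 749.

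The proteases that act with C1q were, like C4b and Serping1, highest in library 746. C1ra, C1rb, C1s1 and C1s2 together were at 47.6 to 53.2 CPM in the Aire+/+ libraries and at 221, 42.5 and 15.3 CPM in the Aire-/- libraries 746, 748 and 749. C1ra, C1s1 and C1s2 were tested and not called (log2 fold changes 0.99, 0.05 and 1.13). The 3′ ends of C1ra and C1rb are 99.0% identical and those of C1s1 and C1s2 96.3%, so the single genes are uncertain between copies. Without 746 C1s1 was called lower (log2 fold change -1.41, edgeR adjusted p = 0.00356), and without 749 C1ra, C1rb and C1s2 were called higher, by 1.58, 2.44 and 1.66 on the log2 scale. Fibroblast markers summed to 67.4 to 105 CPM in the Aire+/+ libraries and to 621, 183 and 155 CPM in 746, 748 and 749. Of 4 fibroblast markers tested, Col3a1 and Dcn were called higher in Aire-/-, by 3.01 and 2.07 on the log2 scale, and the 2 markers Pdgfra and Lum were not analysed here. In library 749 most of the sum was Dcn, a matrix proteoglycan, at 114 CPM. The collagens Col1a1 and Col1a2 were at their lowest of the 6 libraries there, at 0.611 and 6.11 CPM, and Col3a1, at 8.56 CPM, lay inside the Aire+/+ range. The summed C1r and C1s level and Serping1 were also lowest in 749. The part of fibroblast RNA in these levels was not tested.

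**Figure D3:**
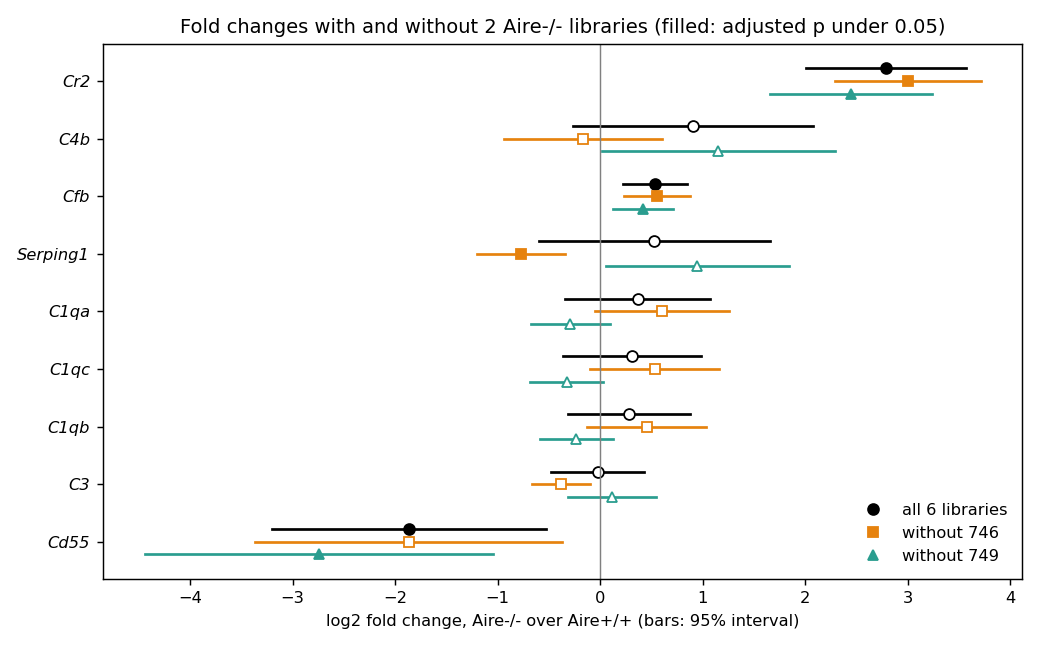
Log2 fold change of Aire-/- over Aire+/+ (horizontal axis) with its unadjusted 95% interval for each of the 9 genes, fitted with all 6 libraries, without 746 and without 749; filled symbols are called. Cr2 and Cfb stay above 0 in each fit and Cd55 below 0. C4b and Serping1 cross 0 without 746, and the C1q genes and C3, which is near 0 with all libraries, cross 0 without 749.

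Factor B rose. Cfb (chromosome 17, 34856374 to 34862518) was counted at 622, 533 and 515 UMIs in Aire+/+ and 255, 429 and 506 in Aire-/-, or, after scaling, 204, 176 and 173 CPM against 262, 231 and 309 CPM. Each Aire-/- library lay above each Aire+/+ library. The log2 fold change was 0.54 with a standard error of 0.14 and a 95% interval of 0.23 to 0.85 (edgeR adjusted p = 0.0173). The call was kept without 746 (0.55, adjusted p = 0.0169) and without 749 (0.41, adjusted p = 0.0397). It was lost without 750 (adjusted p = 0.0769), without 753 (0.0924), without 753 and 746 together (0.0913), and under scaling by library totals, which moved the median of all genes from -0.02 to -0.22 and left Cfb at 0.33 (adjusted p = 0.12). Under that scaling 78.3% of all calls were lower, against 58.5%. Relative to the median of all genes Cfb stood 0.55 higher there and 0.56 higher in the original one. The authors' deposited table gave Cfb a log2 fold change of Aire+/+ over Aire-/- of -0.55 with an adjusted p of 0.0119.

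C2, which encodes the classical-pathway counterpart of factor B, lies next to Cfb on the same strand, with its 3′ end at position 34862604. It was at 50.2, 61.4 and 67.5 CPM in the Aire+/+ libraries and at 87.3, 68.3 and 99.6 CPM in the Aire-/- libraries, which did not overlap. Its log2 fold change was 0.51 (SE 0.18), beside 0.54 for Cfb, and it missed the threshold (edgeR adjusted p = 0.0613). On the other side of Cfb the tested genes Nelfe, Skiv2l and Dxo had log2 fold changes of 0.10, 0.03 and -0.06. On the C2 side, Zbtb12 was at -1.01 and Ehmt2 at 0.32, the latter with levels that did not overlap. None of these 5 was called. A gene model named Gm20547, not analysed here, shares 262 nt of the 3′ end of Cfb without a mismatch.

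Cd55, the regulator that dissociates C3-cleaving enzymes, fell. Its UMIs were 37, 18 and 13 in 745, 750 and 753 (Aire+/+), and 2, 1 and 6 in 746, 748 and 749 (Aire-/-). The scaled levels were 12.1, 5.95 and 4.36 CPM against 2.05, 0.538 and 3.67 CPM, which did not overlap but came close between 753 and 749. The log2 fold change was -1.86 with a standard error of 0.62 and a 95% interval of -3.20 to -0.53, and its edgeR adjusted p of 0.0494 was just under the threshold. DESeq2 gave the same fold change with an adjusted p of 0.0767, and the authors' deposited table gave 0.0765. The call was also lost without 746 (adjusted p = 0.0747), without 748 (0.211) and without 753 and 746 together (0.067), and without 745 or without 750 the gene fell below the count filter and carried no test. It lies on chromosome 1 at positions 130439027 to 130462744, and the next tested gene, C4bp at 130634773 to 130661632, which encodes the plasma regulator C4b-binding protein, fell as well. The other neighbours Cxcr4, Pfkfb2, Mcm6, Dars and AA986860, at log2 fold changes of 0.10, -0.25, -0.24, -0.41 and -1.15, were not called. Levels of Dars and AA986860 did not overlap between genotypes. Near other members, Epha8 beside C1qa was called lower (-3.92), and Cd70 and Tnfsf9 near C3 were called higher (1.65 and 1.58).

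Cr2 had the largest change of the 9 genes in the fit of all libraries. Aire+/+ libraries held 12, 8 and 11 UMIs of it, and Aire-/- libraries 14, 41 and 55. Scaled for depth, these were 3.94, 2.64 and 3.69 CPM against 14.4, 22.1 and 33.6 CPM, so the lowest Aire-/- library, the shallow 746, was still more than 3 times as high as any Aire+/+ library. The log2 fold change was 2.79 with a standard error of 0.36 and a 95% interval of 2.01 to 3.57 (edgeR adjusted p = 0.000121). The call held in all 12 alternative fits, and leaving out 1 library at a time gave 2.45 to 3.003. The authors' deposited table gave a log2 fold change of Aire+/+ over Aire-/- of -2.80 with an adjusted p of 2.83e-08. The 3′ ends counted here are shared by complement receptors 1 and 2, so the table does not tell these products apart.

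Cr2 lies on chromosome 1 at positions 195136811 to 195176716, on the minus strand. The 250 bases before its RefSeq start (GRCm38.p6, chr1:195176720-195176969, minus strand) are shown because Cr2 changed most among the 9 genes; capitals mark TGGGAA, the RBPJ motif, 220 bases before the start.
Cr2 promoter: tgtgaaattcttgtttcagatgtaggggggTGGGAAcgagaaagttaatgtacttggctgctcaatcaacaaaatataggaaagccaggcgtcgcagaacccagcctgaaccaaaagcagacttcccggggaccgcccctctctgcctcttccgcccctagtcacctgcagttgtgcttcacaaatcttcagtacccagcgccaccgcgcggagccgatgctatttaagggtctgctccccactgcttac
That motif occurs in 21.6% of all promoter windows. Of the other 8 motifs the window holds only the E-box, at 3 places, and 66.2% of windows hold an E-box. The RefSeq promoter of Cd55 holds CCCNNGGG (EBF) once, as do 11.8% of windows.

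None of the 3 nearest tested neighbours of Cr2 was called. Cr1l, which encodes Crry, the main membrane regulator of C3 in mice, lies next to Cr2 on the same strand, with its 5′ end at position 195131586, and was at 47.2 ± 5.66 against 54.4 ± 12.7 CPM (log2 fold change 0.21, 95% interval -0.19 to 0.62, edgeR adjusted p = 0.475). Cd34 and Plxna2, the next tested genes, were not called either (log2 fold changes -0.49 and -0.68). Cr2 was the last tested gene on that side of the chromosome.

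Markers of the cells known for Cr2 were summed in each library. The 8 B cell markers in the table summed to 222 to 248 CPM in the Aire+/+ libraries and to 208, 250 and 317 CPM in 746, 748 and 749, which overlapped. Among the Aire-/- libraries the B cell sum and Cr2 had the same order, lowest in 746 and highest in 749. The dendritic cell marker sum had that order too, at 213, 267 and 378 CPM in 746, 748 and 749. Cd79b and Fcer2a, at 150 and 81.9 CPM in 749, made up most of the B cell sum there. Of 7 B cell markers tested, only Pax5, a transcription factor of B cells, was called, as higher (log2 fold change 1.58, edgeR adjusted p = 0.00563), and Cd79b (0.28) was not. Within Aire-/- Pax5 had the reverse order, at 13.3, 12.9 and 9.17 CPM in 746, 748 and 749. The 5 follicular dendritic cell markers summed to 1441 to 1662 CPM in Aire+/+ and to 816 to 1025 CPM in Aire-/-, and 3 of them, Cxcl13, Clu and Madcam1, were called lower. The other 2 were not called: Fcgr2b was at 13.9 ± 3.21 against 22.7 ± 11.1 CPM (log2 fold change 0.73) and Sox9 at 17.0 ± 1.08 against 16.2 ± 5.57 CPM (-0.09). Clu makes up most of that sum and is itself a complement regulator. Summed cortical epithelial markers, like Cr2 and Cfb, were higher in every Aire-/- library, at 2369, 2396 and 2293 CPM in 746, 748 and 749. The same held for the summed fibroblast markers and for the macrophage markers with Lyz2. It also held for the mature mTEC markers (35251 to 42696 CPM in Aire+/+ and 62824 to 73137 CPM in Aire-/-). Levels of 36.5% of all tested genes were separated by genotype. Within the Aire-/- libraries the cortical sum varied little, and Cr2 and Cfb were highest in 749. The part of any of these cell types in Cr2 and Cfb was not tested.

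Among the other 43 complement genes listed, 35 were in the table and 20 were tested. Mbl2, C4bp, Clu, Csmd1 and Itgam fell, and 15 were not called. None was called higher by edgeR, 2 (C2 and Itgb2) had an unadjusted p under 0.05 in that direction, and DESeq2 called 1 higher, C1rb, which was below the edgeR filter. The share called lower, 5 of 20, stood against the background of 12.1%. Mbl2, C4bp, Csmd1 and Itgam passed the count filter through the Aire+/+ libraries, where they are high, so this share is no support for a loss. The median log2 fold change of the 20 was 0.07. Mbl1, Colec10, C7, C9, Cd46, Cd55b, C5ar2 and Vsig4 were not analysed here.

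**Figure D4:**
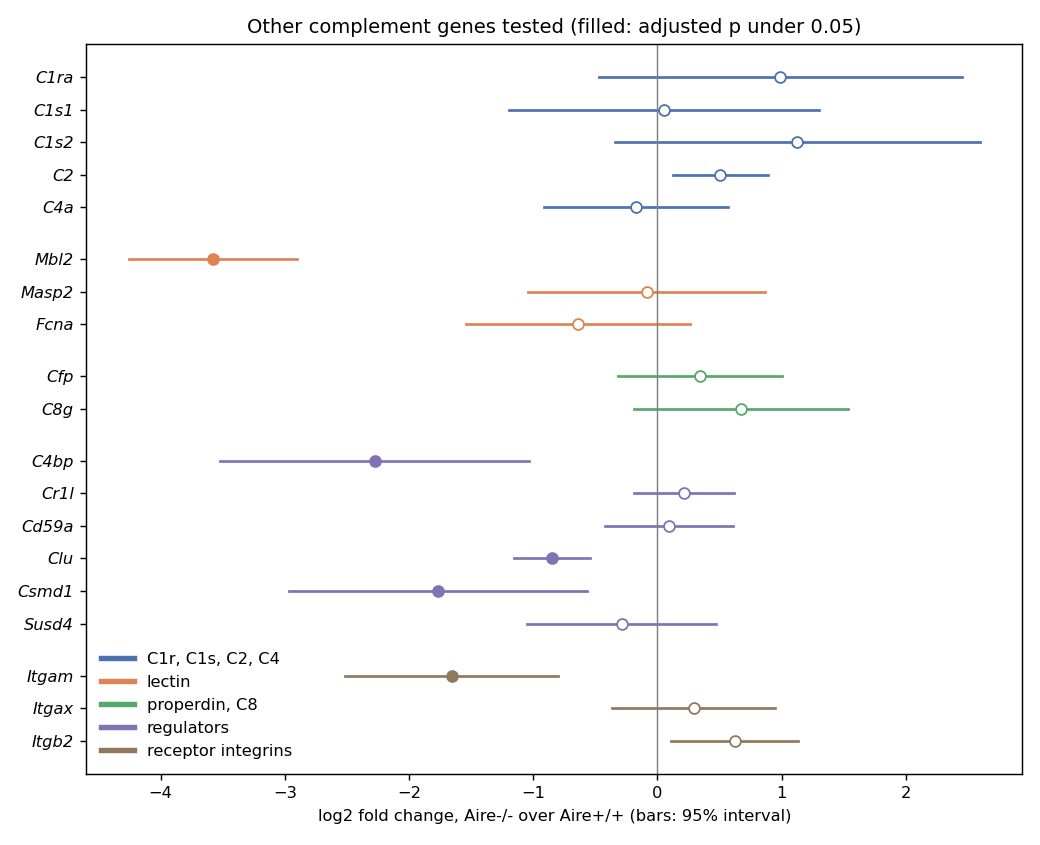
Log2 fold change of Aire-/- over Aire+/+ (horizontal axis) with its unadjusted 95% interval for 19 of the 20 other complement genes tested, grouped by role; filled points are called. The 5 called genes lie below 0, with Mbl2 farthest at -3.58, and C2 and Itgb2 have intervals above 0 without a call.

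Mbl2, a mannose-binding lectin of the lectin pathway made in liver, was counted at 105, 118 and 95 UMIs in Aire+/+ and 1, 6 and 6 in Aire-/-. It fell 11.9-fold, from 35.1 ± 3.59 to 2.64 ± 1.41 CPM, which is -3.58 ± 0.31 (SE) on the log2 scale with an edgeR adjusted p of 5.7e-06. Every Aire-/- library was far below every Aire+/+ library, and the call held in all 12 alternative fits. The lectin-pathway genes Masp2, a protease, and Fcna, a ficolin, were not called (log2 fold changes -0.09 and -0.64). Fcna was at 21.5 to 30.5 CPM in Aire+/+ and at 11.3, 6.46 and 34.2 CPM in Aire-/-, highest in 749, and without that library it was called lower (-1.73, edgeR adjusted p = 0.00132).

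Among the regulators, Clu, which encodes clusterin, an inhibitor of the membrane attack complex, was at 1429, 1382 and 1190 CPM against 693, 678 and 848 CPM. Its levels did not overlap, and it fell 1.80-fold, -0.85 ± 0.14 (SE) on the log2 scale with an edgeR adjusted p of 0.000816. C4bp had 34, 17 and 19 UMIs against 0, 4 and 3 (log2 fold change -2.28, edgeR adjusted p = 0.0125), and the call was lost without 745 (adjusted p = 0.0614). Csmd1, a large membrane protein with complement control domains, had 12, 14 and 17 UMIs against 3, 2 and 1 (log2 fold change -1.77, edgeR adjusted p = 0.038). Its call was lost with DESeq2 (adjusted p = 0.172), without a filter (0.0548), without 748 (0.168), without 749 (0.151) and without 753 and 746 (0.0527), and without each Aire+/+ library in turn it carried no test. Cd59a, a membrane inhibitor of the terminal pathway, and Susd4 were not called (log2 fold changes 0.09 and -0.29).

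Complement receptors 3 and 4 are leukocyte integrins that bind C3 fragments. Itgam, the alpha chain of complement receptor 3, had 44, 27 and 44 UMIs against 2, 7 and 9, and fell by 1.66 on the log2 scale (edgeR adjusted p = 0.009), with means of 12.7 ± 3.28 and 3.77 ± 1.72 CPM. The call was lost without 753 and 746 together (adjusted p = 0.0828). Itgax, the alpha chain of complement receptor 4, was at 20.0 ± 5.75 against 24.5 ± 9.50 CPM, and Itgb2, the beta chain that both share, at 19.8 ± 4.40 against 30.5 ± 6.497 CPM. These 2 were not called (log2 fold changes 0.29 and 0.62), and the difference between Itgam and the other chains was not tested.

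The count filter left 15 further listed genes without a test, none above 29 UMIs in any library. Of these, 10 had a lower mean level in Aire-/-, and C1rb, C6, Cd59b, C3ar1 and C5ar1 had a higher one. In all, 8 had 3 or fewer UMIs over the whole Aire-/- group. Fcnb, a ficolin of the lectin pathway, was counted at 10, 10 and 20 UMIs in Aire+/+ and at 0 throughout Aire-/-; with a floor of 3 UMIs for the whole Aire-/- group it was at least 6.58-fold lower. Hc, which encodes C5, gave 32 UMIs in Aire+/+ and 1 in Aire-/-, and the depth-scaled ratio was 15.8 (exact 95% interval for counting error 2.64 to 643). Colec11, another lectin, had 30 against 1 (ratio 14.8, interval 2.46 to 604), Vtn, vitronectin, 27 against 1 (13.3, 2.20 to 546), and Cfd, the factor D that activates factor B, 37 against 2 (9.13, 2.36 to 78.2). The others, Masp1, C8b and Cfi, had ratios of 4.19 (interval 0.996 to 37.4), 3.45 (1.03 to 18.1) and 8.88 (1.40 to 370). Levels of C8b and Cfi overlapped between genotypes. A filter with a minimum count of 3 called Fcnb, Hc, Colec11, Vtn and Cfd lower. They passed it through the Aire+/+ libraries, where they are high, so these calls add no support. C1rb, also brought in by that filter, was called higher (log2 fold change 1.94, edgeR adjusted p = 0.0422). The receptors for the small complement fragments were near the floor in both genotypes, with 21 and 24 UMIs in all for C3ar1 and 10 and 7 for C5ar1. The Aire+/+ group held more UMIs, so a gene at a given level had more chance of a count there.

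The genes whose log2 CPM followed most closely that of Cr2 over the 6 libraries were Ero1lb, Ttll2, Dynll2, Nsmce2 and Epyc, with Pearson correlations of 0.994 to 0.997. As many as 247 tested genes were above 0.95. For C3 they were Oplah, Fxyd1, Gcg, Henmt1 and Osr1, at 0.98 to 0.991, and for the C1q sum Scn9a, St6galnac6, Clk2, Man2b2 and Erbb3, at 0.967 to 0.983. These correlations describe 6 libraries that share a genotype contrast and differ in depth.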

How the data were processed

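Gene expression was measured by MARS-seq in 6 libraries of sorted mTEChi, per the labels' protocols, after Liberase TH and DNase digestion of the thymus and RNA isolation on Dynabeads. The tools listed in the submitters' processing notes, with no roles, are STAR 2.4.2a, HTSeq, cutadapt, bcl2fastq and DESeq2, and the build is mm10. For annotation, strand and multiply matching reads, the settings were not given in the sources used here. The UMI counts per gene are raw counts in the authors' deposited table, per the file headers. Per the file headers, the log2 fold change and p-value columns are the authors' comparison of the genotypes.

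Counts were tested with edgeR 4.0.16 (R 4.3.3; glmQLFit, glmQLFTest) over all genes, with TMM scaling, genotype as the only term, filterByExpr at min.count 10, Benjamini-Hochberg adjustment over 11956 genes and a threshold of 0.05. Library numbers differ between genotypes and pair no samples. Intervals are 95% from the fold change, its standard error and the fit's degrees of freedom, unadjusted. DESeq2 1.42.0 was an alternative, with other scalings, filters and omitted libraries. The members, lists, tests and rules were chosen with earlier results of these data known. Named genes were all members, every other listed complement gene that was called, and the 5 genes most correlated (log2 CPM, prior count 2) with Cr2, C3 and summed C1q; other genes were named for position, copies or marker lists, or after their values were seen. Positions are from GENCODE M21 (GRCm38, which mm10 names). The last 300 nt of transcripts were compared by blastn 2.17.0, keeping alignments from 80 nt and 80% identity up. Promoters are RefSeq's (GRCm38.p6). Counts of 0 to 3 UMIs got a bound against 3 UMIs per group or an exact Clopper-Pearson interval. The test was checked on simulated data. Some genes of the lists are not reported here by name.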

Additional observations from a re-analysis of the deposited data

How the results depend on the processing

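Cr2 and Mbl2 kept their direction and call in all 12 alternatives. Scaling by library totals gave Cfb 0.33 without a call, 1 higher member, and 567 higher genes of all tested; 78.3% of calls were then lower, against 58.5%. DESeq2 gave Cd55 -1.86 without a call, 0 lower members (1 at an unadjusted p under 0.05 by DESeq2; 1 called by edgeR) and 1 higher gene among the other complement genes. The filter at 3 called 10 of these lower and 2 higher, and no filter called 9 and 2. Over all genes the filter at 3 called 2113 lower and 1109 higher of 14854. Without a filter these were 2142 and 1138 of 15643, and with DESeq2 1531 and 829. The counts among the complement genes are read against those backgrounds. Fcnb, Hc, Colec11, Vtn and Cfd passed the filter at 3 only through their Aire+/+ counts. Without 753 and 746 the values were Cfb 0.50 and Cd55 -2.14, neither called, C4b -0.36 and Serping1 -0.67, with 1 higher and 0 lower members by edgeR (2 and 3 at an unadjusted p under 0.05) and 652 higher genes in all. Leaving out each library in turn gave -0.29 to 0.62 for C1qa, -0.23 to 0.52 for C1qb, -0.33 to 0.58 for C1qc, -0.38 to 0.15 for C3, -0.17 to 1.44 for C4b, 0.41 to 0.64 for Cfb, -0.77 to 0.95 for Serping1 and -2.75 to -1.28 for Cd55. It gave 1 to 3 higher and 0 to 1 lower members, 0 to 3 higher and 3 to 8 lower other complement genes, and 618 to 1156 higher and 1098 to 1899 lower genes of all tested. The lowest count of all higher genes was without 753, and without 745 it was 632. The causes were not tested. No paired analysis was possible because the library numbers differ between genotypes. Cd55 and Csmd1 rested on 9 and 6 UMIs over the Aire-/- group, so their fold changes are imprecise.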
